A study of Mus musculus with 4 samples.

Results

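The genes described here encode mouse transporters of 8 solute carrier families that move bicarbonate, protons, chloride, calcium, sulphate or phosphate, in most families together with or in exchange for sodium. They were taken from the gene names in the scanner files: all probes for names that start with Slc4a, Slc8a, Slc9a, Slc12a, Slc13a, Slc20a, Slc26a or Slc34a and end in a number, with Slc4a1, Slc12a2 and Slc34a2 left out. This gave 82 probes for 47 genes, of 41174 probes that were not controls, under 28478 gene names. Values were measured on 4 two-colour Agilent arrays of total RNA from mouse lungs at E18.5, shortly before birth. On each array a pool of Fgf8+/+ lungs, labelled with Cy3, was set against a pool of Fgf8H/- lungs, labelled with Cy5. The Fgf8H/- embryos carry 1 hypomorphic and 1 null allele of Fgf8, a fibroblast growth factor gene of the early embryo, and the controls were wild type littermates. Each of the 4 pools per genotype held 3 lungs. The lobes had been cut free of the large airways and vessels. Both genotypes were of a mixed background that the labels write as c57nl7/sv129, and the sample titles call the comparison AP/N vs WT without saying what AP/N stands for. No array had its dyes exchanged, so genotype and dye cannot be told apart in any single probe.

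Slc4 proteins carry bicarbonate across the cell membrane, Slc9 proteins exchange sodium for protons, and Slc26 proteins exchange chloride for bicarbonate, sulphate or other anions, so these families together set the pH inside and around a cell. Slc8 proteins move calcium out of the cell against sodium, Slc12 proteins move chloride together with potassium or sodium, Slc13 proteins bring in sulphate or carboxylates with sodium, and Slc20 and Slc34 proteins bring in phosphate with sodium. In the lung before birth, epithelial ion transport drives the secretion of the liquid that fills the airspaces, and the sodium pump maintains the gradient on which most of these carriers depend.

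Between 32491 and 33744 of 43379 non-control spots per array were well above background in the wild type channel, and between 32731 and 34519 in the hypomorph channel. The log2 ratios of the arrays correlated with each other with r between 0.51 and 0.76 across probes. The targeted gene, Fgf8, had log2 ratios of -0.31, -0.23, -0.09 and -0.09 on arrays 1 to 4 and was not called (limma, adjusted p = 0.0571). The lung markers Nkx2-1, Foxf1, Foxa2, Tbx4 and Tbx5 were all well above background. Throughout, a ratio is the log2 of hypomorph over wild type intensity, a level is a log2 intensity of 1 channel, and a probe was tested if at least 3 of the 4 arrays showed it well above background in the Cy3 or the Cy5 channel. A gene is read from its brightest tested probe and counts as called at an adjusted p under 0.05 over all 29950 tested probes, with limma's test of the mean ratio against 0. In whole-lung RNA, fewer cells of a type and less RNA per cell cannot be told apart.

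Of the 47 genes, 34 had a tested probe, and 52 of the 82 probes were tested. The sulphate transporter gene Slc13a4 had the lowest ratio of the 34 and the sodium-calcium exchanger gene Slc8a3 the highest. With Slc4a7, a sodium-bicarbonate cotransporter gene, these were the 3 called genes of at least 1.5-fold. Of the 34 genes, 7 were called higher, 6 were called lower and 21 were not called. The called share was 38.2%, against 26.7% of all 20579 genes tested. For higher calls the shares were 20.6% against 13.6%, and for lower calls 17.6% against 13%. The same shares of all genes, 13.6% and 13%, stand beside the counts of every related and marker list below. By probe, 8 of 52 were higher and 8 lower, which is 30.8% against 24.9% of all probes. The median ratio of the 34 genes was -0.01 and that of all genes was -0.00. The median size of the ratio regardless of sign was 0.13 for the 34 genes and 0.12 for all genes, so the typical transporter gene differed about as much as the typical gene. Called genes of at least 1.2-fold were 9 of 34, or 26.5%, against 15.4% of all genes, and those of at least 1.5-fold were 8.82% against 2.17%. The calls rest unevenly on the arrays: of the 13 called genes, 13 were still called without array 1, 3 without array 2, 5 without array 3 and 8 without array 4. The 3 that were called without array 2 were Slc13a4, Slc8a3 and Slc4a7. Over all probes the calls fell too, from 3804 higher and 3664 lower to 811 and 775 without array 2. Without array 3 they were 1158 and 1241, without array 4 2422 and 2422, and without array 1 3917 and 4064.

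**Figure D1:**
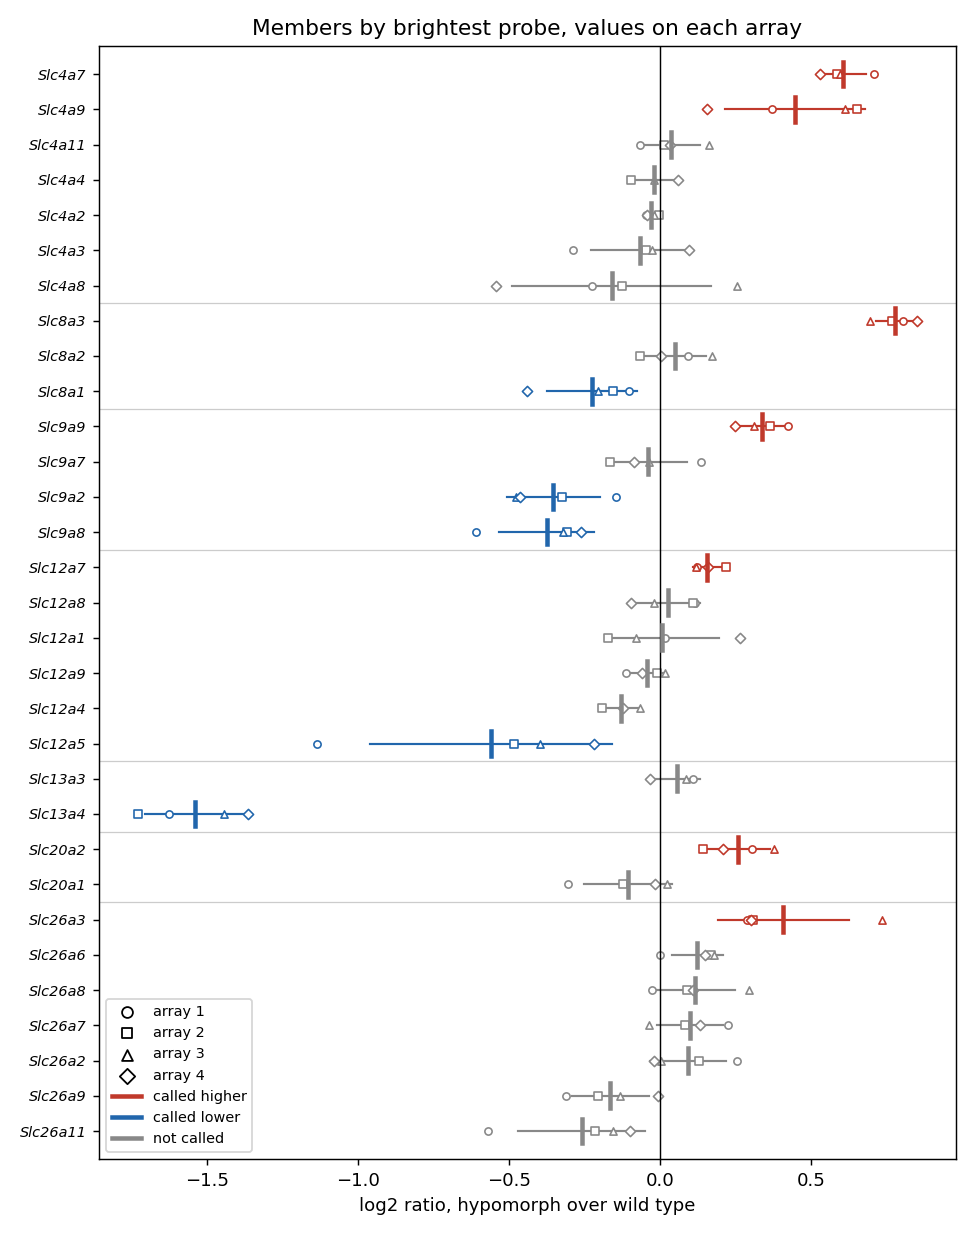
Log2 ratio of hypomorph over wild type on each of the 4 arrays (points) and their mean (bars) for 31 tested transporter genes, grouped by family. Slc13a4 lies at -1.54 and Slc8a3 at 0.78, while 16 of the genes shown have a mean above 0 and 15 a mean below 0.

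The 250 bases before the annotated start of the 3 genes with the largest changes are shown to place them beside their values, from RefSeq on GRCm38.p6, 5′ to 3′ on the strand of the gene. Capitals mark the motif matches found. The windows are chr6:35308127-35308376 on the minus strand for Slc13a4, chr12:81333181-81333430 on the minus strand for Slc8a3 and chr14:14718534-14718783 on the plus strand for Slc4a7.
Slc13a4: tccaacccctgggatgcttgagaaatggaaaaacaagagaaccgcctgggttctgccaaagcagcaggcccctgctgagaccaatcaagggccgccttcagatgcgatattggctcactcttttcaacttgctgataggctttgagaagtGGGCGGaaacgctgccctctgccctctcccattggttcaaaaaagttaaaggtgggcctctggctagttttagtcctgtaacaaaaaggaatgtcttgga
Slc8a3: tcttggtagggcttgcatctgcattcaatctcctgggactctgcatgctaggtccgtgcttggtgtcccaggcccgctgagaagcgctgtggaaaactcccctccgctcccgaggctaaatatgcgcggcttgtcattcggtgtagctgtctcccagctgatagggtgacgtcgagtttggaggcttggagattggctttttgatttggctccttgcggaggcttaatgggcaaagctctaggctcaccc
Slc4a7: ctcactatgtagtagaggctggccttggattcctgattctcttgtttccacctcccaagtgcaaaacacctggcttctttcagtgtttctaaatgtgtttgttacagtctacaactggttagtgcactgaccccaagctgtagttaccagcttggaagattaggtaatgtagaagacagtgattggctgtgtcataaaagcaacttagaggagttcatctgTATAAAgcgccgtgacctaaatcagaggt
Both strands were searched for the core bound by ETS factors, CCGGAA, for the GC box, which is spelled GGGCGG, for the TATA box, spelled TATAAA, and for the core of the hypoxia response element, which is ACGTG. No 2 of these motifs overlapped in the windows shown. The Slc13a4 window held 1 GC box, which starts 100 bases before the gene start, and 50.4% of its bases were G or C. The Slc4a7 window held 1 TATA box, starting 29 bases before the gene start, with 43.6% G or C. The Slc8a3 window held none of the 4 motifs and had 56% G or C. Over the same 250 bases of 32851 mouse promoters, 32.7% held the GC box, 12.4% the TATA box, 12% the ETS core and 16.6% the hypoxia core. The median G or C content was 52.4%. These are matches of letters, and no binding was measured here.

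Slc13a4, a sodium-sulphate cotransporter of the placenta and other tissues, fell on every array. Its level was 13.04, 13.12, 12.83 and 13.05 in the wild type pools and 11.42, 11.39, 11.39 and 11.69 in the hypomorph pools. All 4 hypomorph pools lay more than 1 log2 unit below every wild type pool. The ratios were -1.63, -1.73, -1.44 and -1.36, a mean of -1.54 ± 0.17 (SD, n = 4) or 2.91-fold lower (limma, adjusted p = 8.8e-04). This was the 7th lowest ratio among 20579 genes. It was called under each of the 21 other settings tried, with ratios between -1.60 and -1.30. The single probe for Slc13a4 lies at chr6:35198123-35198182 in build mm8, as the array files give it, and gene models of that build were not used here.

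The other tested gene of the family, Slc13a3, which encodes a sodium-dicarboxylate cotransporter, had a ratio of 0.05 ± 0.08 (n = 3) and was not called. Slc13a1, a sulphate cotransporter of kidney and gut, and the citrate and dicarboxylate carriers Slc13a2 and Slc13a5 had no tested probe. Of the genes of the family, then, 2 of 5 could be compared.

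The genes whose 4 ratios lay nearest to those of Slc13a4, by Euclidean distance among 18549 genes with 4 values, were Pla1a, which encodes a phospholipase, Kcnt1, a sodium-activated potassium channel gene, Igfbp3, which encodes a binding protein of insulin-like growth factors, Gipr, a peptide hormone receptor gene, and Amigo2, which encodes an adhesion molecule. Their mean ratios were -1.55 for Pla1a, -1.49 for Kcnt1, -1.59 for Igfbp3, -1.28 for Gipr and -1.25 for Amigo2. The distances were 0.273, 0.277, 0.409, 0.623 and 0.640 in that order. This likeness is a description over 4 arrays.

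Most mesothelial markers, which label the cells of the lung's outer lining, were also lower. Of 6 tested, 0 were higher and 5 were lower, where 13.6% and 13% of all genes were, and all 6 were well above background. The list median was -0.48, -0.39, -0.61 and -0.43 on arrays 1 to 4. The median on array 3 leaves out Msln, which had no value there. The mean level of the 5 markers with values on all arrays ranged from 10.8 to 11.0 in the wild type pools and from 10.3 to 10.6 in the hypomorph pools. By gene the ratios were -0.69 for Lrrn4, -0.68 for Upk1b, -0.65 for Msln, -0.45 for Wt1, -0.39 for Muc16 and 0.00 for Upk3b. The call of Msln and that of Upk1b were lost without array 2, and that of Muc16 without array 3 or 4 and with processed signals (adjusted p = 0.0538). With median centring in place of loess, Msln had a ratio of 0.12 and Muc16 of -0.19, neither called. The part of these cells in the Slc13a4 result was not tested.

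Slc26a2, the broadly expressed sulphate and chloride exchanger gene, had a ratio of 0.09 ± 0.13 and was not called, and Slc26a1, a sulphate exchanger gene of liver and kidney, had no tested probe. Slc26a11, which encodes a sulphate and chloride transporter, had a ratio of -0.26 ± 0.21 (limma, adjusted p = 0.0638), with -0.57 on array 1 and between -0.22 and -0.10 on the others. Of Slc13a4, Slc26a2 and Slc26a11, then, 1 was called, where 26.7% of all genes were. Among genes that activate sulphate or attach it to sugars and proteins, 30 were tested, 4 were higher and 5 lower, with a median ratio of -0.04. The keratan sulphate sulphotransferase gene Chst1 fell (-0.78 ± 0.11, limma, adjusted p = 0.00136), as did the tyrosine sulphotransferase gene Tpst2 (-0.49 ± 0.05, limma, adjusted p = 0.00197) and the chondroitin sulphotransferase gene Chst3 (-0.26 ± 0.04, limma, adjusted p = 0.00923). Under median centring Tpst2 was at -0.01 and Chst3 at -0.05, neither called, and Chst3 was not called without array 2 (-0.25).

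Slc8a3, which encodes a sodium-calcium exchanger of skeletal muscle and brain, rose on every array. Its level was 7.60, 7.35, 7.54 and 7.54 in the wild type pools and 8.40, 8.12, 8.24 and 8.39 in the hypomorph pools, with no overlap. The ratios were 0.80, 0.77, 0.69 and 0.85, a mean of 0.78 ± 0.07 (SD, n = 4) or 1.71-fold higher (limma, adjusted p = 0.00113). It was called under each of the 21 other settings, at 0.75 to 1.11. The probe lies at chr12:82117443-82117502 (mm8), and its accession was not matched to a RefSeq gene, so its name is that of the array design. The other Slc8a3 probe was not above background. Skeletal muscle markers counted 2 higher and 1 lower of 7 tested, with a list median of 0.08. Their mean level was 8.4 to 9.0 in the wild type and 8.5 to 8.8 in the hypomorph pools, all 7 were well above background, and their part in the result was not tested.

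Slc8a1, which encodes the main sodium-calcium exchanger of heart muscle, gave mixed values over its 6 tested probes. The brightest had ratios of -0.10, -0.16, -0.20 and -0.44, a mean of -0.23 ± 0.15 (limma, adjusted p = 0.0482). It did not pass the test without array 2, 3 or 4 (adjusted p = 0.126, 0.128 and 0.0999), nor as a mean over all probes (-0.01, adjusted p = 0.902) or under median centring (-0.10, adjusted p = 0.323). In all it lost its call under 11 of 21 settings, among them processed signals (adjusted p = 0.0893), plain background subtraction (0.085), an offset of 16 (0.0616), scaling between arrays (0.0532) and no filter on dim probes (0.0509). The other 5 probes lay between -0.19 and 0.14 and were not called. Cardiac markers, which label heart muscle and the muscle sleeves of pulmonary veins, had list medians of 0.11, 0.06, -0.38 and -0.61 on arrays 1 to 4, with 0 of 6 called, all 6 well above background. Their mean level was 11.5 to 12.6 in the wild type and 11.5 to 12.2 in the hypomorph pools, and their part in the Slc8a1 values was not tested. Slc8a2, the exchanger gene best known from neurons, had a ratio of 0.05 ± 0.10 and was not called.

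Of the calcium pumps, release channels and store-entry genes that share calcium handling with these exchangers, 13 were tested, 2 were higher and 5 lower, with a median of -0.13. The heart ryanodine receptor gene Ryr2 was lower by 0.53 ± 0.15 on the log2 scale (limma, adjusted p = 0.00528), and the inositol trisphosphate receptor gene Itpr1 had a ratio of -0.40 ± 0.12 (limma, adjusted p = 0.00707). The skeletal muscle ryanodine receptor gene Ryr1 was higher (0.63 ± 0.22, n = 3, limma, adjusted p = 0.0109). Itpr1 lost its call without array 2 (-0.38) and with median centring (-0.05), and Ryr1 without array 3 (0.56) and as a mean over its probes (0.18, adjusted p = 0.0592).

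Slc4a7 encodes an electroneutral sodium-bicarbonate cotransporter that brings bicarbonate into the cell, and its brightest probe rose. The level was 12.35, 12.39, 12.10 and 12.78 in the wild type pools and 13.06, 12.98, 12.70 and 13.31 in the hypomorph pools. The hypomorph pool was higher on each array, but the ranges of the genotypes overlap, since the wild type pool of array 4 lay above the hypomorph pool of array 3. The ratios were 0.71, 0.59, 0.59 and 0.53, a mean of 0.60 ± 0.08 (SD, n = 4) or 1.52-fold higher (limma, adjusted p = 0.0016). That probe lies at chr14:13533094-13533153 (mm8).

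The remaining probes of Slc4a7 did not share this. The probe at chr14:13593053-13593112 had ratios of -0.21, -0.32, 0.01 and -0.09, a mean of -0.15 ± 0.14 (limma, adjusted p = 0.124). A probe whose ends in the files are chr14:13575487-13579615, wider than its 60 bases, had -0.22, -0.32, -0.03 and -0.19, a mean of -0.19 ± 0.12 (limma, adjusted p = 0.0568). Averaged over the 3 probes, the gene's ratio was 0.09 (limma, adjusted p = 0.211). The rise of Slc4a7 is therefore a rise of 1 of 3 probes, and whether the probes read different transcripts was not tested.

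**Figure D2:**
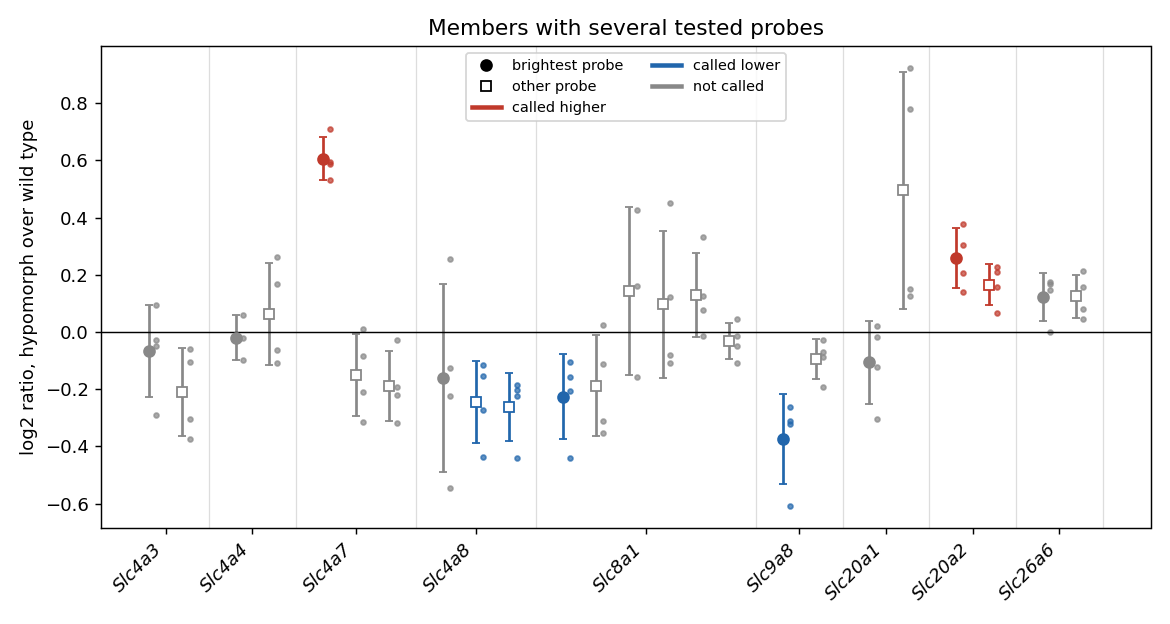
Mean log2 ratio (points) and SD over arrays (bars) of each tested probe of 9 transporter genes with several tested probes. The probes of Slc4a7 run from -0.19 to 0.60 and those of Slc8a1 from -0.23 to 0.14, while both Slc20a2 probes lie above 0.

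Slc4a9, a bicarbonate transporter gene of kidney and secretory epithelia, had ratios of 0.37, 0.65, 0.61 and 0.15. The mean was 0.45 ± 0.23, or 1.36-fold higher (limma, adjusted p = 0.0182), with overlapping levels of 8.66 to 9.27 in wild type and 9.08 to 9.68 in hypomorph pools. The call was lost without array 2 (adjusted p = 0.0881) or array 3 (adjusted p = 0.0737).

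Slc4a8 encodes a sodium-driven chloride-bicarbonate exchanger best known from neurons. Its brightest probe had ratios of -0.22, -0.13, 0.25 and -0.54, a mean of -0.16 ± 0.33, and was not called. Its other probes were called lower, with -0.27, -0.15, -0.12 and -0.44 (mean -0.24 ± 0.14, limma, adjusted p = 0.0379) and -0.18, -0.22, -0.44 and -0.20 (mean -0.26 ± 0.12, limma, adjusted p = 0.0229). All 3 means were below 0. The first of these calls was lost when any 1 array was left out (adjusted p from 0.0517 to 0.101), the second without array 2, 3 or 4 (adjusted p from 0.0538 to 0.0909). With processed signals neither was called (adjusted p = 0.06 and 0.0538), and the first was also not called with plain background subtraction (adjusted p = 0.0623) or median centring (-0.10, adjusted p = 0.299). Slc4a8 was chosen for this description after its values were seen.

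The anion exchanger gene Slc4a2, which most cells express, had ratios between -0.05 and -0.00 on the 4 arrays, a mean of -0.03 ± 0.02 that was not called. Slc4a3, Slc4a4, the gene of the electrogenic sodium-bicarbonate cotransporter, and Slc4a11 had means of -0.07, -0.02 and 0.04, none of them called, and Slc4a10 had no tested probe. The dimmer tested probe of Slc4a3 had a mean of -0.21 ± 0.15 (limma, adjusted p = 0.0613). That of Slc4a4 had 0.06, and neither was called. Of the 7 tested genes of the family 2 were higher and 0 lower, a called share near the 26.7% of all genes.

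Carbonic anhydrases supply these transporters with bicarbonate. Of 14 tested, 1 was higher and 2 lower, with a median of -0.02. Car4, the membrane-anchored enzyme of lung capillary endothelium, fell on all arrays (-0.83, -0.81, -0.55 and -0.87, a mean of -0.76 ± 0.15, limma, adjusted p = 0.00185). Endothelial markers counted 1 higher and 3 lower of 6 tested, all 6 well above background, with a median of -0.15. Their mean level was 14.2 to 14.3 in wild type and 13.97 to 14.24 in hypomorph pools, and their part in the Car4 value was not tested. Car2, a cytosolic enzyme, rose (0.30 ± 0.02, n = 3, limma, adjusted p = 0.0154), and Car8, a family member without enzyme activity, fell (-0.26 ± 0.13, limma, adjusted p = 0.0249). Without array 3 neither was called (adjusted p = 0.0836 and 0.0974), Car2 also not without array 4 (adjusted p = 0.0539) and Car8 also not without array 2 (adjusted p = 0.0966). Car8 was also not called with processed signals (-0.21, adjusted p = 0.0654). Under median centring Car8 was at -0.02, not called, and Car2 at 0.86, and as a mean over its probes Car8 was at -0.47.

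Called genes of the Slc9 sodium-proton exchangers went in both directions. Slc9a8, which encodes an exchanger of inner membranes and apical surfaces, fell: its level was 11.73, 11.79, 11.72 and 11.69 in the wild type and 11.12, 11.48, 11.40 and 11.43 in the hypomorph pools, with no overlap. The ratios were -0.61, -0.31, -0.32 and -0.26, a mean of -0.38 ± 0.16 or 1.30-fold lower (limma, adjusted p = 0.0133). The probe lies at chr2:167167913-167167972 (mm8). A dimmer probe of Slc9a8 had a mean of -0.09 ± 0.07 and was not called. The call was lost without array 2 (adjusted p = 0.0649), without array 3 (adjusted p = 0.053) and with median centring, where the ratio was -0.16. As a mean over its probes the ratio was -0.24 and called.

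Slc9a2, whose protein lies in the apical membrane of epithelia, had levels of 7.59, 7.67, 8.01 and 7.96 in the wild type and 7.44, 7.34, 7.53 and 7.49 in the hypomorph pools. Every hypomorph pool lay below every wild type pool. The ratios were -0.15, -0.33, -0.48 and -0.46, a mean of -0.35 ± 0.15 or 1.28-fold lower (limma, adjusted p = 0.0153). Leaving out array 2, 3 or 4 took the adjusted p to 0.0757, 0.0676 and 0.0525. The probe lies at chr1:40713729-40713788 (mm8), and its accession was not matched to a RefSeq gene. The other Slc9a2 probe was not above background.

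Slc9a9, which encodes an exchanger of endosomes, rose. Its ratios were 0.42, 0.36, 0.31 and 0.25, a mean of 0.34 ± 0.07 or 1.26-fold higher (limma, adjusted p = 0.00698). The levels touch, since the highest wild type pool was at 7.74 and the lowest hypomorph pool at 7.72. Without array 2 the adjusted p was 0.0518. The probe lies at chr9:95038198-95038257 (mm8), and the other Slc9a9 probe was not above background.

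Slc9a7, a gene of the Golgi apparatus exchanger, had a ratio of -0.04 ± 0.13 and was not called. The genes Slc9a3 and Slc9a4, whose proteins act in kidney and stomach, and the array's Slc9a10, now Slc9c1 and known from sperm, had no tested probe.

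Among 10 tested regulators of these exchangers and of bicarbonate transport, 2 were higher and 2 lower, with a median of -0.04. Chp1, a calcium-binding partner of sodium-proton exchangers, had a ratio of -0.31 ± 0.14 (limma, adjusted p = 0.0192), Tesc, a relative of Chp1, 0.26 ± 0.11 (limma, adjusted p = 0.0212) and Ezr, which encodes the membrane linker ezrin, 0.17 ± 0.05 (limma, adjusted p = 0.0353). These calls were fragile. Tesc lost its call without array 2 or 3 (adjusted p = 0.0925 and 0.0822), Chp1 without array 2, 3 or 4 (0.0886, 0.0807 and 0.0533), and Ezr without any 1 array (0.0533 to 0.114). Chp1 was also not called as a mean over its probes (-0.10, adjusted p = 0.194), and under median centring it was at 0.21. Ezr was also not called with processed signals (0.06, adjusted p = 0.47), plain background subtraction (0.15), an offset of 16 (0.16) or a loess span of 0.1 (0.09, adjusted p = 0.188), and under median centring it was at 0.77.

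Slc12a5, the potassium-chloride cotransporter gene best known from mature neurons, had the largest spread of the called genes. Its level was 13.48, 13.54, 12.80 and 12.72 in the wild type and 12.34, 13.05, 12.40 and 12.50 in the hypomorph pools, and the genotypes overlap. The ratios were -1.14, -0.49, -0.40 and -0.22, a mean of -0.56 ± 0.40 or 1.47-fold lower (limma, adjusted p = 0.037). Array 1 gave a far lower ratio than the others. The call was lost without array 2 (adjusted p = 0.121) or 3 (adjusted p = 0.0848), and with the scanner software's processed signals (-0.53, adjusted p = 0.0663) or plain background subtraction (-0.55, adjusted p = 0.0566). Without array 1 the ratio was -0.37 and under median centring -0.28, both called. The probe lies at chr2:164690814-164690873 (mm8). Neuronal markers had list medians of 0.21, 0.08, -0.04 and -0.04 on arrays 1 to 4, with 0 of 5 called and all 5 well above background. Their mean level was 7.6 to 8.1 in the wild type and 7.7 to 8.0 in the hypomorph pools.

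Slc12a7, a potassium-chloride cotransporter gene of epithelia, had a small rise of 0.15 ± 0.05 (limma, adjusted p = 0.0442) that lost its call under 9 of 21 settings. These were the fits without array 2, 3 or 4, processed signals (adjusted p = 0.0539) and the series table that repeats them, plain background subtraction (0.0587), an offset of 16 (0.0524), no filter on dim probes (0.052) and separate channels (0.0503). Under median centring it was at 0.38 and called. Its relative Slc12a4 had a ratio of -0.13. Slc12a1, known from the kidney, had 0.01, and Slc12a8 and Slc12a9 had 0.03 and -0.04. None of these 4 was called, and the kidney sodium-chloride cotransporter gene Slc12a3 had no tested probe. The WNK and SPAK kinases switch these cotransporters on or off by phosphorylation. Of 11 tested genes of that pathway 3 were higher and 2 lower, where 13.6% and 13% of all genes were, with a median of 0.00. The ubiquitin ligase gene Nedd4l was the lowest in p (-0.31 ± 0.07, limma, adjusted p = 0.00798), followed by Cab39l, which encodes a kinase scaffold (0.22 ± 0.07, limma, adjusted p = 0.0198), and the kinase gene Oxsr1 (0.18 ± 0.05, limma, adjusted p = 0.0273). Without array 2 none of the 3 was called (adjusted p = 0.0573, 0.0992 and 0.12). Cab39l was also not called without array 3 or 4 (0.0528 and 0.0596), nor Oxsr1 without array 3 or 4 (0.114 and 0.0518), and Nedd4l was at -0.06 under median centring. The calls of Cab39l and Oxsr1 are those of their brightest probes: as means over all probes the ratios were 0.08 (adjusted p = 0.286) and 0.05 (adjusted p = 0.402), and under median centring the brightest probes were at 0.51 and 0.41.

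**Figure D3:**
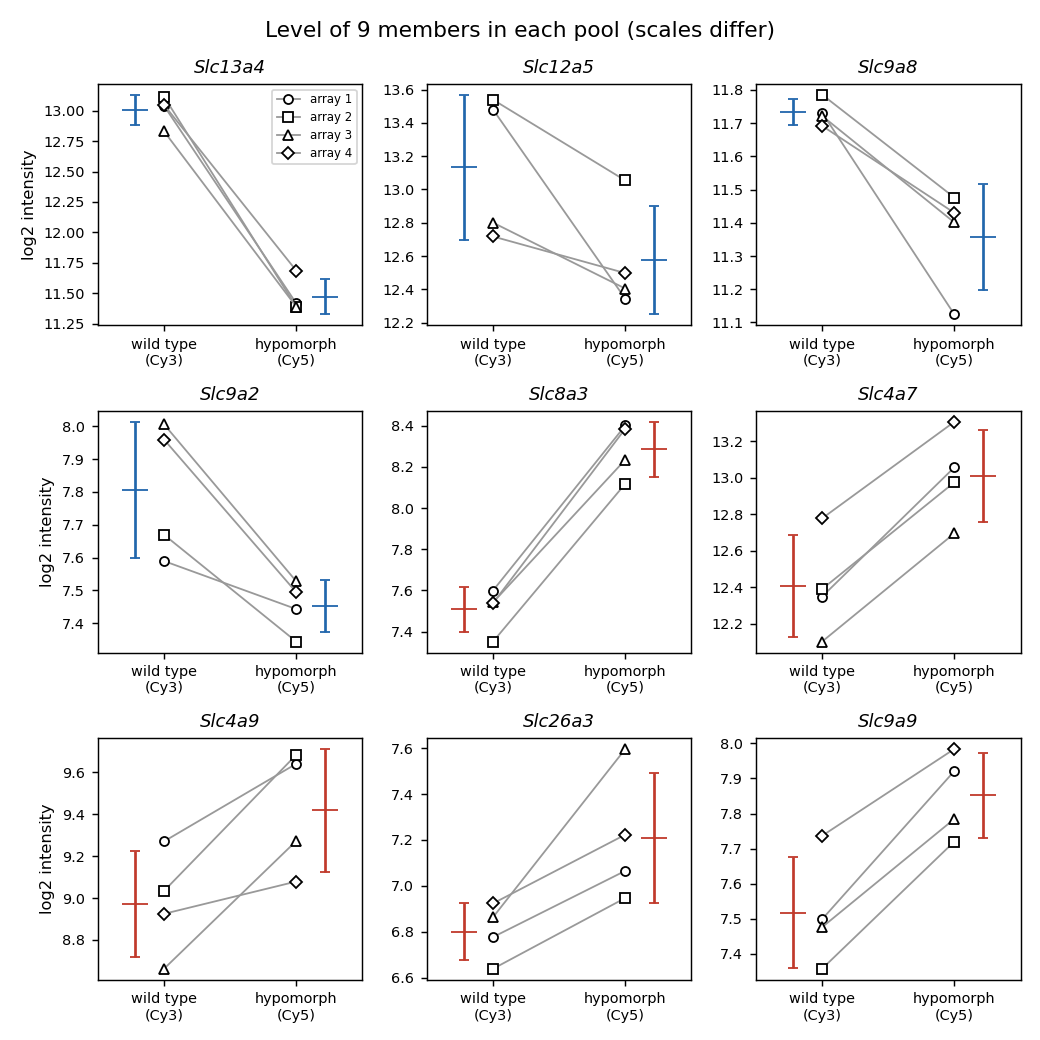
Log2 intensity of 9 called transporter genes in the 4 wild type pools (Cy3) and 4 hypomorph pools (Cy5), with lines joining the pools of 1 array and a separate scale for each gene. The lines of Slc13a4 fall on all 4 arrays, from a mean of 13.01 to a mean of 11.47, and those of Slc12a5 fall by unequal amounts.

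Of the Slc26 exchangers 1 of 7 tested genes was called, where 26.7% of all genes were. Slc26a3, the chloride-bicarbonate exchanger gene of the gut, had levels of 6.78, 6.64, 6.86 and 6.92 in the wild type and 7.07, 6.95, 7.60 and 7.22 in the hypomorph pools, with no overlap. The ratios were 0.29, 0.31, 0.73 and 0.30, a mean of 0.41 ± 0.22 or 1.33-fold higher (limma, adjusted p = 0.0204). Array 3 stood above the rest. The size depended on the background correction for this dim probe, with 0.79 from processed signals and 0.75 after plain subtraction, both called. Its call was lost without array 2 (adjusted p = 0.078), and its other 2 probes were not above background. The tested probe lies at chr12:32038734-32038793 (mm8), and its accession was not matched to a RefSeq gene.

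Slc26a9, a chloride transporter gene of airway and stomach epithelia, had a ratio of -0.16 ± 0.13 (limma, adjusted p = 0.0857). Slc26a6, a widely expressed anion exchanger gene, had 0.12 in both of its probes. Slc26a7 and Slc26a8 had 0.10 and 0.12. None was called. Slc26a4, which encodes pendrin, an anion exchanger of the inner ear, thyroid and airway, and Slc26a5, a motor protein gene of outer hair cells, had no tested probe.

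The sodium-phosphate cotransporters of type III are used by most cells for phosphate uptake. Slc20a2 was higher in both of its probes. The brighter probe had ratios of 0.30, 0.14, 0.38 and 0.21, a mean of 0.26 ± 0.11 or 1.195-fold (limma, adjusted p = 0.0202), and the dimmer one a mean of 0.16 ± 0.07 (limma, adjusted p = 0.0465). Slc20a2 and the probes of Slc20a1 were chosen for this description after their values were seen. The call of the brighter probe was lost without array 2, 3 or 4 (adjusted p = 0.0593, 0.0849 and 0.0508), that of the dimmer one under 11 of 19 settings. These were each fit without 1 array, processed signals (adjusted p = 0.0732) and the series table, no background subtraction (0.0565), plain subtraction (0.0622), an offset of 16 (0.0544), no filter on dim probes (0.0534), and trend and robust variance (0.0713). Under median centring the brighter probe was at 0.41. Slc20a1 was not called in either probe. The brighter had a ratio of -0.11 ± 0.15 and the dimmer one 0.15, 0.78, 0.92 and 0.13, a mean of 0.50 ± 0.41 (limma, adjusted p = 0.0557). The kidney cotransporter genes Slc34a1 and Slc34a3 had no tested probe.

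Of 12 other tested genes that handle phosphate, 3 were higher and 6 lower, where 13.6% and 13% of all genes were, and the median was -0.17. Phex, which encodes a membrane protease known for restraining the phosphate hormone Fgf23, rose on all arrays (0.64, 0.50, 0.70 and 0.54, a mean of 0.59 ± 0.10, limma, adjusted p = 0.00195). Pth1r, the receptor gene of parathyroid hormone and its related peptide, rose (0.39 ± 0.03, limma, adjusted p = 0.00322). Alpl, which encodes the tissue-nonspecific alkaline phosphatase, fell (-0.43 ± 0.08, limma, adjusted p = 0.00367). Under median centring Pth1r was at 0.64 and Alpl at -0.23, both still called.

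The sodium pump keeps up the sodium gradient that these carriers spend. Of 11 tested pump subunits and FXYD regulators, 1 was higher and 4 lower, with a median of -0.09. The regulator gene Fxyd4 fell on all arrays (-0.99, -0.79, -0.95 and -0.74, a mean of -0.87 ± 0.12 or 1.82-fold lower, limma, adjusted p = 0.00132). Fxyd5, another regulator gene, had -0.35 ± 0.05 (limma, adjusted p = 0.00476), and the beta subunit gene Atp1b1 had -0.46 ± 0.10 (limma, adjusted p = 0.00423). Both depended on the correction along intensity, since median centring gave -0.09 for Fxyd5 and 0.07 for Atp1b1, neither called.

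**Figure D4:**
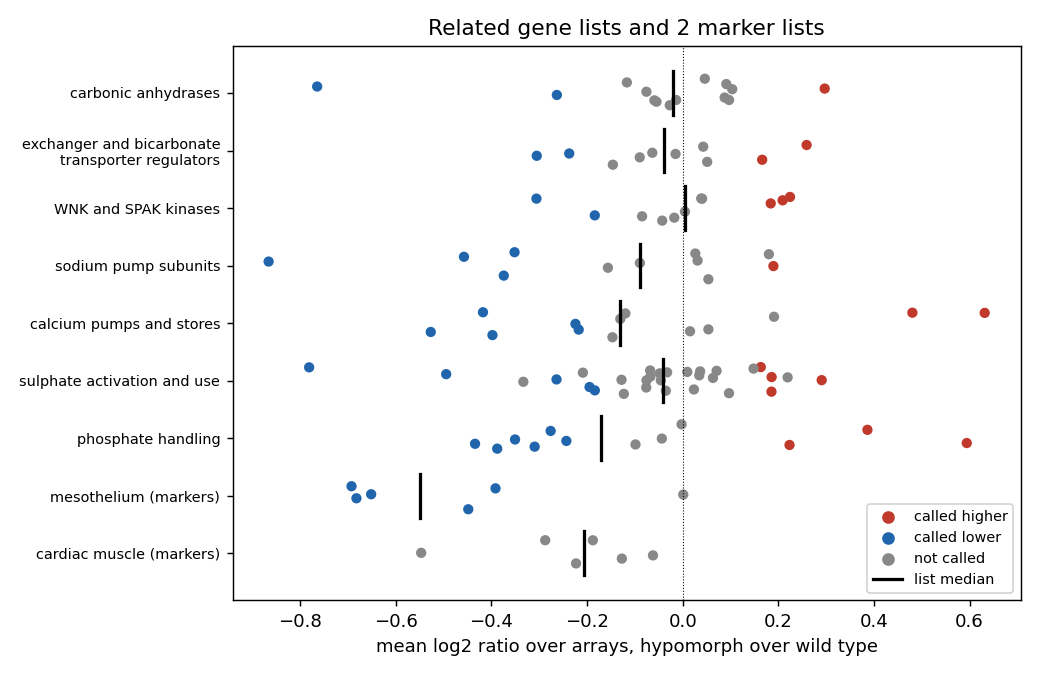
Mean log2 ratio of each tested gene (points, coloured by call) in 7 related gene lists and 2 marker lists, with the list median as a bar. The mesothelial list has 5 of 6 genes called lower, and the carbonic anhydrases spread around a median of -0.02 with Car4 at -0.76.

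The 13 genes without a tested probe are those named above as such. Of the 30 probes that were not tested, 27 were not well above background in either channel on any array, so that no difference between the genotypes could be read for them at this signal. The remaining marker lists are given by their counts. Type 2 cell markers counted 0 of 5 called with a median of 0.05, and type 1 cell markers 0 higher and 2 lower of 6 with a median of -0.09. The type 2 markers Sftpc and Sftpd had no tested probe. Ciliated cell markers counted 0 of 6 with a median of 0.26, higher on arrays 1 and 2 (0.60 and 0.36) than on arrays 3 and 4 (-0.00 and 0.07). Neuroendocrine markers had 2 of 5 lower, red cell markers 2 of 7 lower, liver markers 2 of 4 lower and thymus markers 2 of 5 higher. Cartilage markers had 1 of 5 higher, lung identity markers 1 of 5 higher, which was Nkx2-1, and the 1 thyroid marker tested was not called.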

How the data were processed

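Scans were processed in Agilent Feature Extraction, version 9.5.1 per the submitters' processing notes. Mean and local background intensities in the deposited files are uncorrected, per the file headers, whereas the deposited processed intensities had background and dye effects removed by that software. Its deposited log10 column gives processed red over processed green. The series table deposited by the authors has log2 values that equal the same quotient (correlation 1 on each array), with column medians of -0.02, -0.00, -0.05 and -0.02.

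Mean intensities were corrected with normexp (limma 3.58.1, R 4.3.3, offset 50) and normalized by loess (span 0.3, control spots at weight 0). Control spots and spots marked as outliers were left out. Ratios were tested against 0 with limma and Benjamini-Hochberg adjustment, and all 4 arrays, on 1 slide and read in 1 scan, entered. The 4 replicates are separate pools, per the labels, and their number limits the precision. Levels are per channel after loess and Aquantile. Transporter genes keep the names of the array design, and 64 of their 82 probes carried an accession found in a RefSeq gene table. Other probes take the symbol of that table where their accession was in it, and the 28478 gene names rest on this. On simulated tables of the 27139 probes with values on all arrays, 200 of them changed, 76.7% of probes changed 1.5-fold were recovered, 91.9% of those changed 2-fold, and 3.53% of calls were false. These tables held independent noise, no dye effect of single probes and a smaller changed share than the 24.9% of probes called here. The simulated rates therefore need not hold for these calls.

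By rule, array values are given for genes with a called probe of at least 1.2-fold or with probes of opposite sign of which 1 was called, and those of Slc4a8, Slc20a1 and Slc20a2 were added after they were seen, and each related list is shown by its 3 called genes with the smallest p. The genes described and the lists were chosen with earlier results of these data known, so they give no independent support. Some genes of these families enter the counts and are otherwise not reported here.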

Additional observations from a re-analysis of the deposited data

Results flagged for a closer look

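In 3 of the 48 tested transporter probes with values on all 4 arrays, 1 array stood apart from the other 3 by more than Dixon's critical value, against about 1 in 20 by chance. The tested Slc26a3 probe had a log2 ratio of 0.73 on array 3. The Slc4a8 probe A_52_P292937 had -0.44 on array 3. The brighter Slc26a6 probe had -0.0015 on array 1, where the other arrays lay between 0.15 and 0.18.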

How the results depend on the processing

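Each result was recomputed under 21 alternatives, of which the Aquantile step between arrays leaves every ratio unchanged and could not alter a call. Slc13a4 and Slc8a3 kept direction and call under all of them, and Slc4a7 under all but the mean over its probes. Against 7 transporter genes called higher and 6 lower, processed signals, plain background subtraction and the deposited series table, which repeats the processed signals, each called 3 lower. Over all probes the lower calls also fell, from 3664 to 2566 with processed signals and 2798 with plain subtraction. Median centring left the tested probes at a median of 0.10. It called 11 higher and 5 lower among the transporters and 10994 probes higher over the whole array (against 3804). It also turned the signs of Chp1 (0.21), Atp1b1 (0.069) and Msln (0.12), none of which was then called. Averaging the probes of a gene gave 2377 lower calls among 20579 genes, against 2726 when only the brightest probe of each gene was fitted. The main setting, adjusted over all tested probes, gave 2681. Leaving out 1 array gave 2 to 8 transporter genes higher and 1 to 6 lower, and 811 to 3917 probes higher and 775 to 4064 lower over all. Without array 2, 18 of 41 named results kept their call and 23 lost it. The cause was not tested. The test of within-array ratios is itself the paired analysis, since each array holds 1 pool of each genotype. Ratios of probes near background are limited by their signal.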
